A study of Homo sapiens with 40 samples.

Results

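The genes described here encode SR proteins and heterogeneous nuclear ribonucleoproteins (hnRNPs), the major families of RNA-binding splicing regulators, with the cold-inducible RNA-binding proteins CIRBP and RBM3. Members were all genes whose current symbol starts with HNRNP or with SRSF and a number, plus CIRBP and RBM3. The rule uses names and no expression value, but it was set with earlier results of these data known. Of 18348 genes with a probe on the arrays, 39 were members. The brightest probe stood for a gene, and for 37 members its mean passed a filter line of 5 (log2 intensity) in 1 group or more, among 10584 genes that did so. These 37 were 12 SRSF genes, 23 HNRNP genes, CIRBP and RBM3. HNRNPCL1 and HNRNPKP3 stayed at or below 4.58 and 4.75 in every group and were not tested. HNRNPA1P10 and HNRNPA3P1 are annotated pseudogenes, and HNRNPA1L2 is a near copy of HNRNPA1, so which transcripts their probes report is uncertain.

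The samples were 40 arrays of total RNA from A549, an established human lung carcinoma line that responds to glucocorticoids. Cells were transfected with a nonspecific siRNA (siNS) or with siRNA against 1 of 4 coregulators of the glucocorticoid receptor: CCAR1, CoCoA (gene CALCOCO1), CCAR2 or ZNF282. They went into hormone-free medium 2 days after transfection and on the following day received 100 nM dexamethasone (dex), a synthetic glucocorticoid, or ethanol. The protocol gives 6 h for both, but the titles of the ethanol arrays carry 0 h. If those arrays were taken at 0 h, a difference between dex and ethanol also holds 6 h of time, which cannot be told apart from dex. The groups held 6 arrays each for siNS in ethanol and in dex, 4 each for siCCAR1, siCoCoA and siCCAR2 in either treatment, and 2 each for siZNF282. The labels give a single siRNA name per target and do not say whether arrays came from separate cultures, so the spread between arrays may be partly technical. Every cell, the controls included, was transfected, and a depletion was measured only against siNS and not against untransfected cells.

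SR proteins carry arginine-serine repeats, bind exonic enhancers and recruit the spliceosome, whereas hnRNPs coat nascent transcripts and often repress splice sites or steer mRNA stability and export. CIRBP and RBM3 are glycine-rich RNA-binding proteins known for their induction in mildly chilled cells. CCAR2 (also called DBC1) acts with ZNF326 in a complex that couples transcript elongation by RNA polymerase II to exon choice, which is the reason for examining splicing factor transcripts in these cells. The arrays measure the amount of transcript that carries a probe's sequence and do not measure splicing itself.

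The label of each siRNA was checked on its target. The transcript left, relative to siNS in ethanol and in dex, was 60.5% and 49.8% for CCAR1, 73.8% and 54.3% for CALCOCO1, 20.1% and 20.3% for CCAR2, and 37.4% and 55.5% for ZNF282, each called lower. CCAR2 was also lower in siCoCoA cells, with log2 differences of −0.96 and −1.10. These falls were larger than those of the target CALCOCO1 itself in the same cells (−0.44 and −0.88). The part of CCAR2 in the siCoCoA results was not tested. Of 12 epithelial or A549 markers 8 lay above 5 in every group, while NAPSA, SFTPB, SFTPC and NKX2-1 of alveolar type II cells did not; of 13 leukocyte, endothelial and fibroblast markers with a probe, 10 lay below 5 in every group, and CD14 lay between 6.45 and 8.13. Interferon-stimulated genes were higher in every depletion. Of 21 tested, 17 and 19 rose in siCCAR1 cells (ethanol, then dex) and 21 in each other depletion and treatment, with medians from 1.82 to 5.61. Their part in the results below was not tested.

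Against siNS cells, called members were nearly always lower. A gene was called when its adjusted p was under 0.05, in limma's moderated test with Benjamini-Hochberg adjustment over all 10584 genes. In siCCAR1 cells 8 of 37 members fell and none rose in ethanol (genes of all kinds called, 13.9%; lower, 6.52%). In dex 10 fell and 1 rose (19% called; 8.91% lower). In siCoCoA cells 9 fell in ethanol (15.5% called; 7.07% lower) and 12 in dex (20.1% called; 9.08% lower). In siCCAR2 cells 5 fell in ethanol (16.3% called; 8.98% lower) and 6 in dex (19% called; 8.4% lower). In siZNF282 cells 12 fell in ethanol (31.5% called, 17.1% lower) and 10 in dex (30.5% called, 15% lower). Both siZNF282 counts include HNRNPA1, HNRNPA1L2 and HNRNPA1P10, and their probes may not report separate transcripts.

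Members called in either direction thus made up 21.6% and 29.7% of the list in siCCAR1 cells. In siCoCoA cells they made up 24.3% and 32.4%. These shares lay above those of all genes. With a limit of at least 1.5-fold this no longer held for siCoCoA in ethanol (2 of 37 members, 619 of 10584 genes). Called members made up 13.5% and 16.2% in siCCAR2 cells and 32.4% and 27% in siZNF282 cells, near or below the share of all genes called. All of them were lower, however. Set against genes called lower (8.98% and 8.4% for siCCAR2, 17.1% and 15% for siZNF282), these member shares were higher. For siCCAR2 they rest on 5 and 6 members, and without some single arrays 3 were called in either treatment. Under some other fits the siZNF282 counts were also lower, as given below. These differences in share are therefore not read as an excess. The replicate numbers pair siCCAR2 with siNS arrays in dex. With them as a block 10 members were called there in place of 6, or 27% against 22.3% of all genes. The share called in either direction thus passed there from below to above that of all genes. The median member difference was −0.14 and −0.23 for siCCAR1, −0.22 and −0.25 for siCoCoA, −0.08 and −0.10 for siCCAR2, and −0.29 and −0.23 for siZNF282 (ethanol, then dex). The median of all genes ran from −0.08 to 0.02. The siNS arrays of a treatment are shared by its 4 depletion comparisons, which are therefore given side by side. Ethanol and dex comparisons share no arrays, but same-numbered arrays deviated together (siNS, 6 pairs, correlation 0.129 to 0.27), so they are not independent. In both treatments 7 members fell for siCCAR1, 8 for siCoCoA, 3 for siCCAR2 and 7 for siZNF282. The share of all genes that fell in both was not counted, so these numbers are not read as an excess.

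**Figure D1:**
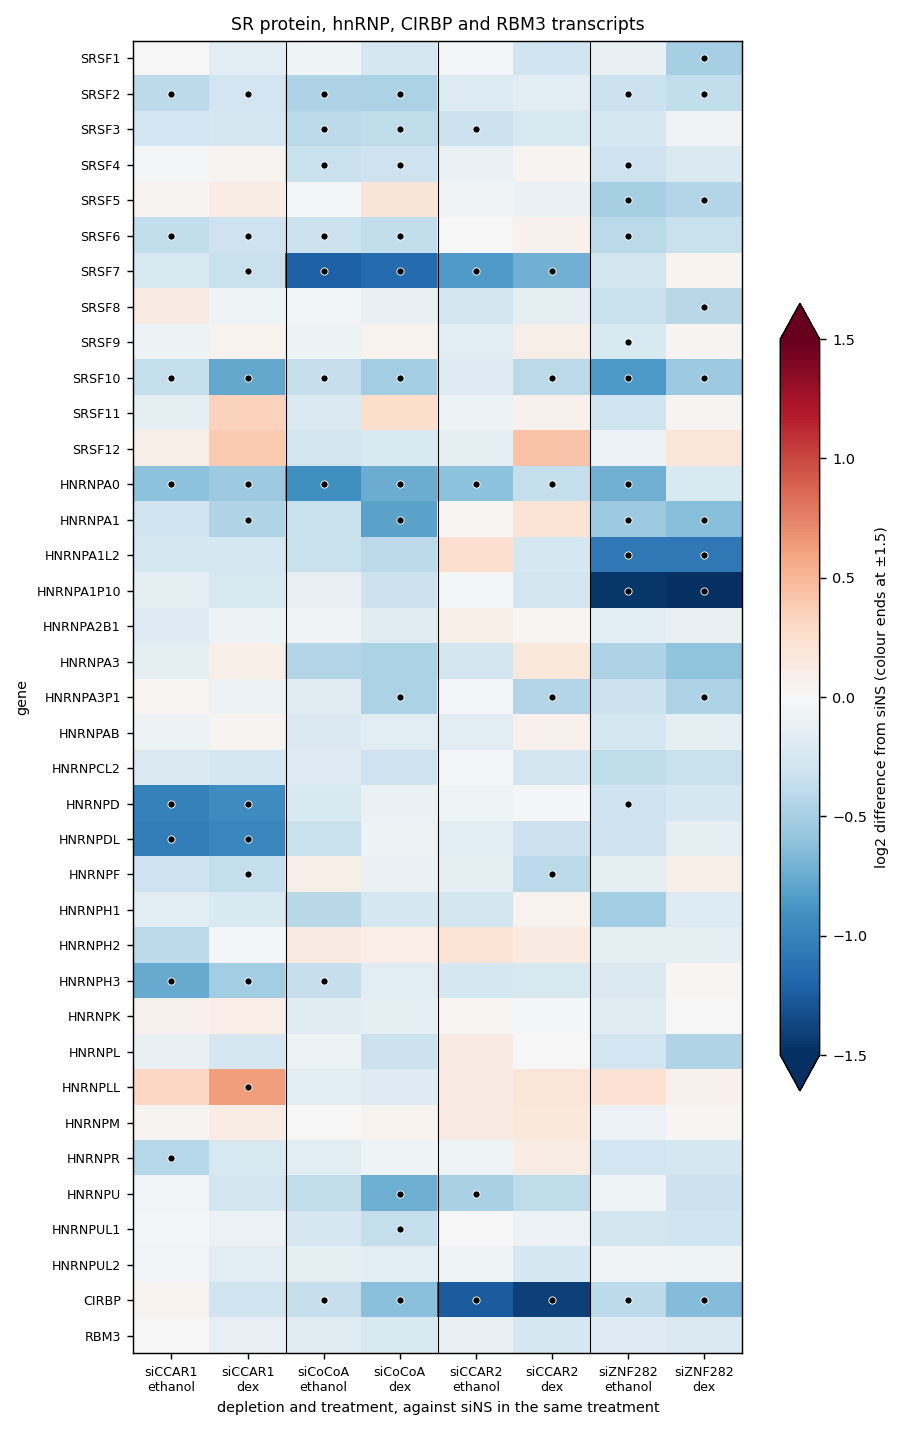
Log2 difference of each of the 37 tested members (rows) from siNS in the same treatment, for the 4 depletions in ethanol and in dex (columns); blue is lower, red is higher and black dots mark an adjusted p under 0.05. The darkest cells are CIRBP in siCCAR2, SRSF7 in siCoCoA, HNRNPD and the brighter HNRNPDL probe in siCCAR1, and HNRNPA1P10 in siZNF282 cells, and the single called rise is HNRNPLL in siCCAR1 cells in dex.

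CIRBP was the member with the largest fall after depletion of CCAR2. It binds RNA in nucleus and cytoplasm and stabilises transcripts under cold and other stress. In siNS cells it ranged from 9.70 to 10.55 in ethanol (median 10.41) and from 10.52 to 10.90 in dex (median 10.73). The siCCAR2 arrays read 9.10, 9.19, 9.06 and 8.82 in ethanol. In dex they read 9.43, 9.43, 9.31 and 9.11. All siCCAR2 arrays thus lay below all siNS arrays of their treatment. The log2 difference was −1.25 ± 0.12 (SE, 4 against 6 arrays; adjusted p = 5.66e-10) with ethanol and −1.40 ± 0.12 (adjusted p = 7.41e-11) with dex, so 41.9% and 38% of the siNS intensity remained.

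CIRBP changed less in the other depletions. Its arrays read 9.87, 10.09, 10.00 and 9.86 in siCoCoA cells in ethanol and 9.86, 10.27, 10.19 and 10.03 in dex. The 2 siZNF282 arrays read 9.88 and 9.93 in ethanol, then 10.04 and 10.10 in dex. The siNS and depleted arrays did not overlap for either siRNA in dex, where CIRBP differed by −0.63 ± 0.12 (siCoCoA, adjusted p = 0.00018) and −0.65 ± 0.15 (siZNF282, adjusted p = 0.00106), both called. In ethanol, where 1 siNS array was as low as 9.70, they did overlap, and the differences of −0.34 and −0.40 lay just past the threshold (adjusted p = 0.0463 and 0.0435). Both ethanol calls were lost without single arrays, 8 of 10 for siCoCoA and 6 of 8 for siZNF282, and the siCoCoA call was lost with the replicate number as a block (−0.26, adjusted p = 0.0647). With siCCAR1 the CIRBP difference was 0.06 ± 0.12 (ethanol, adjusted p = 0.825) and −0.30 ± 0.12 (dex, adjusted p = 0.0797).

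Set directly against the other depletions, CIRBP was lower in siCCAR2 cells in all 6 comparisons. The difference was −1.31 ± 0.13 and −1.10 ± 0.13 against siCCAR1 (ethanol, then dex; adjusted p = 1.4e-09 and 5.1e-08). It was −0.91 ± 0.13 and −0.77 ± 0.13 against siCoCoA (adjusted p = 2.3e-06 and 3.4e-05) and −0.86 ± 0.16 and −0.75 ± 0.16 against siZNF282 (adjusted p = 0.00012 and 0.00063). None of these calls was lost when any single array was left out.

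RBM3, the other cold-inducible member, was not called in any depletion. It ranged from 9.34 to 9.91 in siNS cells in ethanol and from 9.30 to 10.03 in dex. The siCCAR2 arrays read 9.42, 9.46, 10.00 and 9.23 in ethanol, then 9.41, 9.21, 9.72 and 9.59 in dex, overlapping with siNS in either treatment. Its differences over all depletions ran from −0.01 to −0.26, with a smallest adjusted p of 0.246. The 95% interval for siCCAR2 was −0.42 to 0.21 in ethanol and −0.58 to 0.05 in dex, which leaves room for a fall but not for one of the size seen in CIRBP.

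The bases just before the RefSeq start sites of these 2 genes are shown because their transcripts differed under the same siRNA (GRCh38.p14; 250 bases 5′ to 3′ on the gene's own strand, ending at the base before the start). Capitals mark the GC box, GGGCGG or its reverse complement CCGCCC. CIRBP lies on the plus strand at chr19:1269082-1269331 and RBM3 on the plus strand at chrX:48574234-48574483.
CIRBP: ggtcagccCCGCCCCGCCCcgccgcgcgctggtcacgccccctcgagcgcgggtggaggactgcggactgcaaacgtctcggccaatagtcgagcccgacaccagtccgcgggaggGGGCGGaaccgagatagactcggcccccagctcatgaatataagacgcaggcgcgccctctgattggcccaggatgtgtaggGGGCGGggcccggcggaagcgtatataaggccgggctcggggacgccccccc
RBM3: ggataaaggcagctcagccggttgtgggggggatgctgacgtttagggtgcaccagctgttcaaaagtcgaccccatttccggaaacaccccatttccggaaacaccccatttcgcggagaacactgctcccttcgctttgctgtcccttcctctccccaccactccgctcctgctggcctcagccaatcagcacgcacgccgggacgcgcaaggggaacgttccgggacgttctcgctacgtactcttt
The CIRBP window held 4 matches, of which the 2 at its 5′ end share a base, and the RBM3 window held 0. A GC box on either strand occurred in 42.6% of the 35116 windows of this length. It occurred before 21 of the 33 members with a RefSeq entry (63.6%) and before 46.2% of 27305 genes. Other motifs were also searched. CCAAT occurred before 60.6% of members and 37% of genes, TATAAA before 15.2% and 13%, and CACGTG before 18.2% and 7.73%. AGAACA, a half-site of the glucocorticoid receptor, occurred before 18.2% and 14.8%. CIRBP held 2 CCAAT matches and 0 of AGAACA, and RBM3 held 1 of each. The part of any motif in the differences was not tested.

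SRSF7 was the SR protein with the largest falls. It shuttles between nucleus and cytoplasm and, unlike most SR proteins, carries a zinc knuckle. In siNS cells it ranged from 9.28 to 9.62 in ethanol (median 9.48) and from 9.37 to 9.83 in dex (median 9.56). The siCoCoA arrays read 8.01, 8.16, 8.58 and 8.16 in ethanol, then 8.29, 8.41, 8.57 and 8.48 in dex. The siCCAR2 arrays read 8.79, 8.37, 8.45 and 8.79 in ethanol, then 8.64, 8.96, 9.00 and 8.90 in dex. All of these lay below every siNS array of the same treatment. The SRSF7 difference was −1.22 ± 0.12 (adjusted p = 5.05e-10) and −1.16 ± 0.12 (adjusted p = 1.17e-09) in siCoCoA cells. In siCCAR2 cells it was −0.85 ± 0.12 (adjusted p = 9.52e-07) and −0.72 ± 0.12 (adjusted p = 1.61e-05). Both are the depletions in which CCAR2 itself was lower, and the part of CCAR2 in the siCoCoA result was not tested.

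Compared with siCoCoA, SRSF7 was higher in siCCAR2 cells by 0.37 ± 0.13 (ethanol, adjusted p = 0.032) and 0.44 ± 0.13 (dex, adjusted p = 0.0098). The ethanol call was lost without 5 of 8 single arrays and with only those groups in the fit (adjusted p = 0.164). SRSF7 was lower in siCCAR2 than in siCCAR1 cells by −0.61 ± 0.13 and −0.38 ± 0.13 (adjusted p = 0.00037 and 0.022) and than in siZNF282 cells by −0.57 ± 0.15 and −0.76 ± 0.15 (adjusted p = 0.0053 and 0.0003). Single arrays ended the siCCAR1 call in dex (2 of 8) and the siZNF282 call in ethanol (1 of 6). Against siNS SRSF7 differed by −0.23 and −0.33 in siCCAR1 cells, the dex value called at an adjusted p of 0.0395 but at 0.0582 with the replicate block. In siZNF282 cells the differences of −0.27 and 0.05 were not called.

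**Figure D2:**
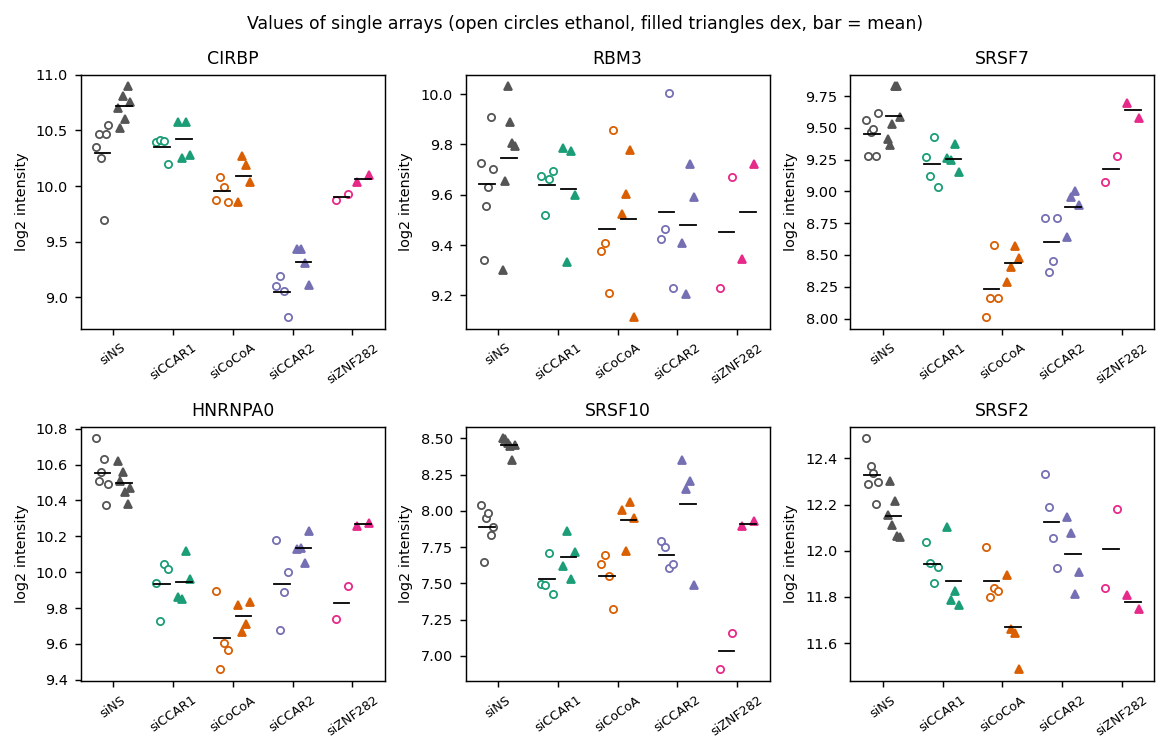
Log2 intensity of CIRBP, RBM3, SRSF7, HNRNPA0, SRSF10 and SRSF2 on every array, by siRNA; open circles are ethanol, filled triangles are dex and bars are group means. All CIRBP points of siCCAR2 cells lie at or below 9.43, under every siNS point, whereas the RBM3 points of all groups overlap.

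The other SR proteins changed by smaller amounts. SRSF2 (SC35), a nuclear speckle component that promotes exon inclusion, read 12.02, 11.80, 11.84 and 11.83 in siCoCoA cells in ethanol, all below the siNS range of 12.20 to 12.49. Its differences were −0.39 and −0.28 in siCCAR1 cells, −0.46 and −0.48 in siCoCoA cells and −0.32 and −0.37 in siZNF282 cells, all called, with adjusted p from 0.000271 to 0.0381. The call in siCCAR1 cells in dex and both in siZNF282 cells ended without single arrays (5 of 10, then 3 and 2 of 8). In siCCAR2 cells SRSF2 was not called.

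SRSF10, which represses splicing when dephosphorylated after heat shock, ranged from 7.64 to 8.04 in siNS cells in ethanol and from 8.35 to 8.50 in dex. The siCCAR1 arrays in dex read 7.62, 7.86, 7.53 and 7.72, and the siZNF282 arrays in ethanol read 6.91 and 7.16, in each case below all siNS arrays. The differences were −0.36 and −0.77 for siCCAR1, −0.34 and −0.52 for siCoCoA, −0.20 (adjusted p = 0.272) and −0.40 for siCCAR2, and −0.86 and −0.54 for siZNF282, all called but the one with its p. Single arrays ended the calls of siCCAR1 and siCoCoA in ethanol (6 of 10 arrays each), of siCCAR2 in dex (replicate 4) and of siZNF282 in dex (replicate 2). A dimmer SRSF10 probe gave smaller differences, from −0.45 to 0.02, none of them called.

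SRSF6, another exon enhancer-binding SR protein, was called lower in siCCAR1 (−0.37 and −0.31) and siCoCoA cells (−0.32 and −0.36) and in siZNF282 cells in ethanol (−0.41). SRSF3 and SRSF4, regulators of exon inclusion and, for SRSF3, of mRNA export, fell in siCoCoA cells in both treatments (SRSF3, −0.39 and −0.38; SRSF4, −0.33 and −0.31). SRSF3 also fell in siCCAR2 cells in ethanol (−0.32, adjusted p = 0.0465), and SRSF4 in siZNF282 cells in ethanol (−0.31, adjusted p = 0.0309). SRSF5 was called lower in siZNF282 cells (−0.49 and −0.44) and in no other depletion. The remaining SRSF calls were SRSF1 (−0.49) and SRSF8 (−0.42) in dex and SRSF9 (−0.23) in ethanol, all in siZNF282 cells, where each group holds 2 arrays. Of all the calls in these sentences, the one that no single array ended was SRSF4 in siCoCoA cells in ethanol. SRSF11 and SRSF12 had no depletion call.

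Among the hnRNPs, HNRNPA0 fell in all 4 depletions in ethanol. It is an A/B-type hnRNP that binds AU-rich elements of mRNAs. In ethanol it ranged from 10.37 to 10.75 in siNS cells. The siCCAR1 arrays read 9.94, 9.73, 10.05 and 10.02 and the siCoCoA arrays 9.89, 9.46, 9.61 and 9.57. The siCCAR2 arrays read 10.18, 9.68, 9.89 and 10.00 and the siZNF282 arrays 9.74 and 9.92. No depleted array reached the lowest siNS array. The log2 differences were −0.62 ± 0.09 (siCCAR1, adjusted p = 1.2e-05), −0.92 ± 0.09 (siCoCoA, adjusted p = 2.69e-09), −0.62 ± 0.09 (siCCAR2, adjusted p = 7.56e-06) and −0.72 ± 0.12 (siZNF282, adjusted p = 1.23e-05).

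In dex the HNRNPA0 differences were −0.55, −0.74, −0.36 and −0.23 in the same order, the last not called (adjusted p = 0.146) although the siZNF282 arrays, at 10.26 and 10.28, lay below the lowest siNS array at 10.38. HNRNPA0 was higher in siCCAR2 than in siCoCoA cells by 0.31 in ethanol and 0.38 in dex (adjusted p = 0.031 and 0.0063). The ethanol call was lost without 5 of 8 single arrays and with only those groups in the fit (adjusted p = 0.21), and the dex call was not lost without any single array. No HNRNPA0 call against siNS was lost without any single array.

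Depletion of CCAR1 was marked by lower HNRNPD and HNRNPH3 and by a fall of 1 of the 2 HNRNPDL probes. HNRNPD (AUF1) binds AU-rich elements and steers mRNA decay, HNRNPDL is its close relative, and HNRNPH3 belongs to the G-run binding H/F group. HNRNPD ranged from 12.10 to 12.34 in siNS cells in ethanol and from 11.93 to 12.34 in dex. The siCCAR1 arrays read 11.15, 11.26, 11.28 and 11.19 in ethanol, then 11.31, 11.04, 11.18 and 11.15 in dex, far below that range. The differences were −1.02 ± 0.10 (adjusted p = 1.18e-09) and −0.94 ± 0.10 (adjusted p = 5.55e-09), leaving 49.5% and 52.1%. A second HNRNPD probe was also lower (−0.78 and −0.55; adjusted p = 1.6e-08 and 5.3e-06).

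HNRNPDL gave opposite answers on its 2 probes. On the brighter one it ranged from 8.02 to 8.32 in siNS cells in ethanol and from 8.15 to 8.64 in dex. The siCCAR1 arrays read 6.96, 7.04, 7.42 and 7.08, then 7.29, 7.55, 7.62 and 7.68, so the groups did not overlap in either treatment. The HNRNPDL difference was −1.04 ± 0.13 (adjusted p = 3.23e-07), then −0.98 ± 0.13 (adjusted p = 5.58e-07). The second probe read 7.56, 7.19, 7.15 and 7.41, then 7.45, 7.15, 7.57 and 7.38 on the same arrays, with siNS values of 6.85 to 7.46 and 6.68 to 6.97. Its differences were 0.31 (adjusted p = 0.188) and 0.58 (adjusted p = 0.00698), and on the mean of both probes the dex difference was −0.20 (adjusted p = 0.143). The second probe was also higher in siCoCoA cells in dex (0.48, adjusted p = 0.023) and in siZNF282 cells (0.54 and 0.62; adjusted p = 0.0332 and 0.0137). The transcript forms that each probe reads are not given in the sources used here.

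HNRNPH3 ranged from 9.74 to 10.07 in siNS cells in ethanol and from 9.52 to 9.97 in dex. The siCCAR1 arrays read 9.13, 9.08, 9.23 and 9.16, then 9.34, 9.17, 9.19 and 9.33, below all siNS arrays. The HNRNPH3 differences were −0.75 ± 0.10 (adjusted p = 2.92e-06) and −0.52 ± 0.10 (adjusted p = 0.000351). A further probe was also lower (−0.85 and −0.68, both called), and the dimmest, with −0.27 and −0.11, was not called. HNRNPH3 also fell in siCoCoA cells in ethanol (−0.34, adjusted p = 0.0206), a call that 3 of 10 arrays, left out alone, ended.

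Set directly against siCCAR1, the level in siCCAR2 cells was higher by 0.95 ± 0.10 and 0.92 ± 0.10 for HNRNPD (ethanol, then dex; adjusted p = 1.1e-08 and 1.7e-08). For HNRNPH3 it was higher by 0.50 in ethanol (adjusted p = 0.0013), and the dex difference of 0.29 was not called (adjusted p = 0.0612). The brighter HNRNPDL probe was higher by 0.87 and 0.66 (adjusted p = 1.2e-05 and 0.00045). The second ran the other way (−0.20 and −0.16, not tested), and on the mean of both probes the dex call was lost (0.25, adjusted p = 0.0752). Against siNS, HNRNPD and the brighter HNRNPDL probe had no call in siCoCoA or siCCAR2 cells, and HNRNPD was just called in siZNF282 cells in ethanol (−0.31, adjusted p = 0.0477; ended by 5 of 8 arrays left out alone).

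HNRNPD and HNRNPDL lie near each other on chromosome 4, with 3 annotated genes between them, none of which was tested. On the far side of HNRNPDL its next tested neighbour is ENOPH1, an enzyme of the methionine salvage pathway. ENOPH1 was lower in siCCAR1 cells (−1.62 and −1.67; adjusted p = 1.0e-12 and 4.0e-13) and had no call in another depletion. The next tested genes outwards did not fall with them. PRDM8, on the HNRNPD side, differed by −0.13 and −0.02, and TMEM150C, beyond ENOPH1, by −0.07 and −0.12, none called. SCD5, a fatty acid desaturase, rose by 0.99 and 0.98.

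The bases before the HNRNPD start and all bases between the start sites of HNRNPDL and ENOPH1, which are read in opposite directions, are shown because HNRNPD, ENOPH1 and the brighter HNRNPDL probe were lower in siCCAR1 cells, whereas the second HNRNPDL probe was not. Both are written on the minus strand of GRCh38.p14, which is the strand of HNRNPD and HNRNPDL, at chr4:82373992-82374241 and chr4:82430463-82430589. Capitals mark the GC box as before.
HNRNPD: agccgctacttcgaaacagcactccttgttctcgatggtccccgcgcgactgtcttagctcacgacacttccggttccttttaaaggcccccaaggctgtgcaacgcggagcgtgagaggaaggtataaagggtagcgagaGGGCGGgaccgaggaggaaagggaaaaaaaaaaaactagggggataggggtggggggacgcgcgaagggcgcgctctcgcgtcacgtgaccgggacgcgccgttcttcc
HNRNPDL to ENOPH1: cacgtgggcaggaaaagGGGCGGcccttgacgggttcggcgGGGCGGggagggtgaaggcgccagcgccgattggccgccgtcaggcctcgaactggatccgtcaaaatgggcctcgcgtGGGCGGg
The HNRNPD window held 1 match. The 127 bases between HNRNPDL and ENOPH1 held 3, and 34.7% of windows of that length held at least 1. Of the other motifs, the HNRNPD window held 1 each of TATAAA (10.7% of windows of its length), CACGTG (6.34%) and AGAACA (12.4%), and 0 of CCAAT. The 127 bases held 1 each of CCAAT (21.2%) and CACGTG (4.06%), and 0 of TATAAA and AGAACA. The part of these motifs in the differences was not tested.

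On the brightest probe of each gene, HNRNPLL was the single member that rose in a depletion. It is known for steering exon choice in the leukocyte gene PTPRC. In dex it ranged from 6.21 to 7.04 in siNS cells and read 7.21, 7.73, 7.12 and 7.42 in siCCAR1 cells, above every siNS array. The difference was 0.63 ± 0.17 (adjusted p = 0.00585). In ethanol it was 0.31 ± 0.17 (adjusted p = 0.242).

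**Figure D3:**
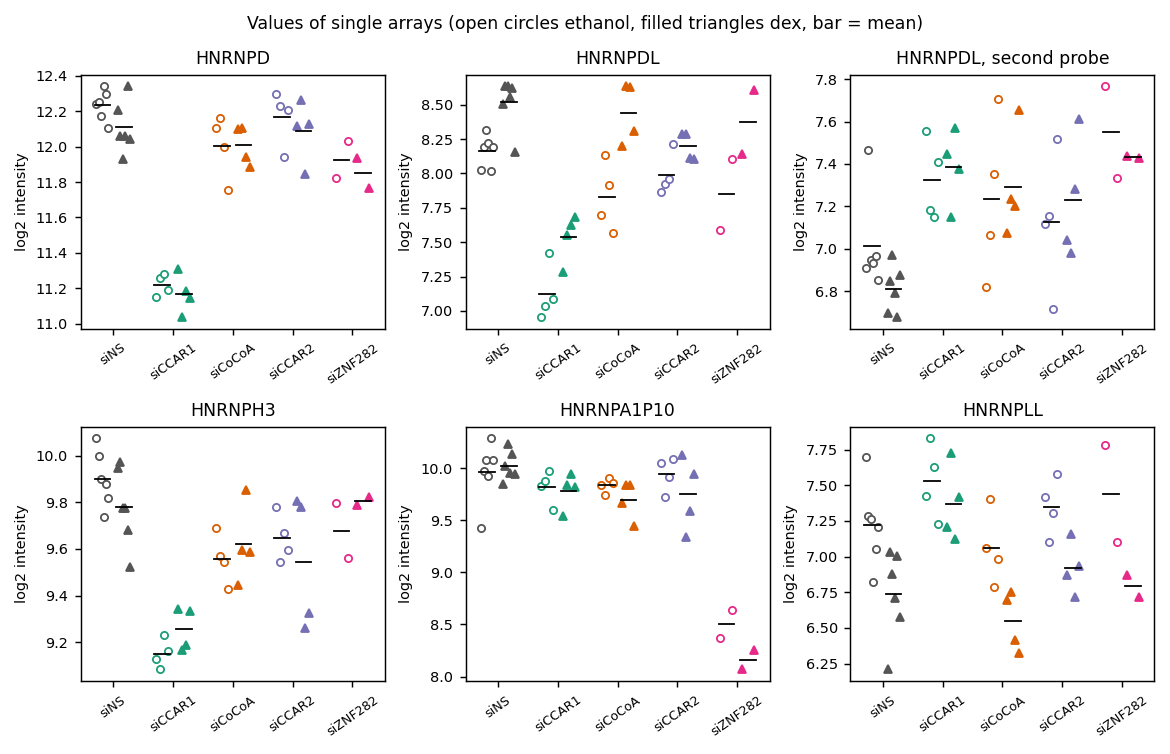
Log2 intensity of HNRNPD, both HNRNPDL probes, HNRNPH3, HNRNPA1P10 and HNRNPLL on every array, by siRNA; open circles are ethanol, filled triangles are dex and bars are group means. The siCCAR1 points of HNRNPD, of the brighter HNRNPDL probe and of HNRNPH3 lie below all siNS points, those of the second HNRNPDL probe do not, and the 4 siZNF282 points of HNRNPA1P10 lie between 8.07 and 8.64.

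In siZNF282 cells the largest fall was that of a probe annotated to an HNRNPA1 pseudogene. HNRNPA1 binds splicing silencers and is among the most abundant hnRNPs. The probe of HNRNPA1P10 ranged from 9.42 to 10.29 in siNS cells in ethanol and from 9.85 to 10.24 in dex. The siZNF282 arrays read 8.37 and 8.64, then 8.07 and 8.25, below all siNS arrays. The difference was −1.46 ± 0.17 (adjusted p = 2.24e-08) and −1.87 ± 0.17 (adjusted p = 1.04e-10), called also without either siZNF282 array, where the remaining array was assumed to vary like those of other groups.

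HNRNPA1L2 read 4.36 and 4.57 in ethanol, then 4.33 and 5.06 in dex in siZNF282 cells, against 5.26 to 6.00 and 5.48 to 6.25 in siNS cells. The gene was called lower (adjusted p = 0.000742 and 0.000707), the dex call being lost without replicate 2. Both siZNF282 group means, 4.47 and 4.70, lay below the filter line of 5, which HNRNPA1L2 passed in the other groups, and 3 of the 4 arrays lay below the array medians of 4.67 to 4.69. At this low end of the scale the size of the fall is not settled, and no fold is given.

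The HNRNPA1 probe read 6.61 and 6.99, then 6.63 and 6.70 in siZNF282 cells. The first pair overlapped with the siNS range of 6.87 to 7.65, and the second lay below the range of 6.99 to 7.54. The differences were −0.55 ± 0.18 (adjusted p = 0.0177) and −0.63 ± 0.18 (adjusted p = 0.00623), each call lost without replicate 2. A second HNRNPA1 probe gave −0.23 and −0.68, neither called. HNRNPA1 also fell in dex in siCoCoA cells, where it read 6.55, 6.62, 6.39 and 6.44 (−0.80 ± 0.14, adjusted p = 6.45e-05), and in siCCAR1 cells (−0.45 ± 0.14, adjusted p = 0.0218; ended by 4 of 10 arrays left out alone). In siCCAR2 cells it was not called, and its level there was higher than in siCoCoA cells in dex by 1.00 ± 0.16 (adjusted p = 8.1e-06).

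The other hnRNP calls were few. HNRNPU, a nuclear scaffold protein that also affects splicing, fell in siCoCoA cells in dex (−0.73, adjusted p = 0.000697) and in siCCAR2 cells in ethanol (−0.49, adjusted p = 0.0265). HNRNPF fell in dex in siCCAR1 (−0.35, adjusted p = 0.0471) and siCCAR2 cells (−0.41, adjusted p = 0.0207). The pseudogene HNRNPA3P1 fell in dex in siCoCoA (−0.47), siCCAR2 (−0.44) and siZNF282 cells (−0.46). Its means there were 5.37, 5.41 and 5.39, against 5.85 in siNS cells. These lie little above the filter line of 5, so the size of its falls is not settled. HNRNPUL1 fell in siCoCoA cells in dex (−0.36) and HNRNPR in siCCAR1 cells in ethanol (−0.43), each on the brightest of 3 probes while the others were not called. No lower call was made for 14 members: RBM3, SRSF11, SRSF12, HNRNPA2B1, HNRNPA3, HNRNPAB, HNRNPCL2, HNRNPH1, HNRNPH2, HNRNPK, HNRNPL, HNRNPLL, HNRNPM and HNRNPUL2. The share of all genes without a lower call was not counted, so this number is not read as few or many. Single arrays ended the HNRNPF, HNRNPR and siCCAR2 HNRNPU calls and the HNRNPA3P1 calls outside siCoCoA. The differences of these 14 ran from −0.60 (HNRNPA3) to 0.63 (HNRNPLL).

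Set directly against the other depletions, siCCAR2 cells showed members in both directions. Against siCCAR1, 5 members were higher and 4 lower in ethanol (all genes called, 24.4%), then 5 and 2 in dex (26%). Against siCoCoA, 3 were higher and 1 lower in ethanol (20.9%), then 8 and 1 in dex (22.2%). Against siZNF282, 6 were higher and 2 lower in ethanol (26.6%), then 5 and 3 in dex (23.5%). The share of members called, from 10.8% to 24.3%, was at or below that of all genes in 5 of these comparisons, and in dex against siCoCoA it was 24.3%.

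Other parts of the splicing machinery were followed for context. Of 64 core spliceosome genes tested, 6 and 9 fell in siCCAR1 cells (9.38% and 14.1%, ethanol then dex; all genes lower, 6.52% and 8.91%). In siCoCoA cells 9 and 14 fell (14.1% and 21.9%; all genes 7.07% and 9.08%). In siCCAR2 cells 3 and 7 fell (4.69% and 10.9%; all genes 8.98% and 8.4%), and in siZNF282 cells 15 and 13 (23.4% and 20.3%; all genes 17.1% and 15%). In any comparison 0 to 2 rose. Their medians lay between −0.22 and −0.01. DDX46, a helicase of the U2 particle, differed by −1.02 and −1.06 in siCCAR2 cells and ISY1 by −0.73 and −0.98, all called. PRPF8, the core of the catalytic spliceosome, was lower in siZNF282 cells (−1.02 and −1.15, both called). Of 35 other splicing regulators 3 to 8 fell (8.57% to 22.9%) and 0 to 4 rose. PTBP3, a repressor of the polypyrimidine-tract family, fell in siCCAR1 (−0.63, −0.58) and siCoCoA cells (−0.77, −0.70) and rose in siCCAR2 cells (0.51, 0.67).

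Of 23 SR-related regulators and SR kinases 0 to 5 fell (at most 21.7%) and 0 to 1 rose. Of 13 exon junction complex and nonsense-mediated decay genes 0 to 3 fell (at most 23.1%) and 0 to 1 rose. ZNF326, the partner of CCAR2, had no depletion call, with differences from −0.12 to 0.38. Of 11 heat stress genes 5 and 4 fell in siZNF282 cells (45.5% and 36.4%) and at most 1 fell elsewhere. Of 28 cell cycle genes 15 and 18 fell in siCoCoA cells (53.6% and 64.3%) and 10 and 8 in siZNF282 cells (35.7% and 28.6%). In siCCAR1 cells 6 and 6 fell (21.4% each), all of these above the shares of all genes lower given above. In siCCAR2 cells 3 and 2 fell (10.7% and 7.14%), near the shares of all genes there. The part of these genes in the members' falls was not tested.

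Between dex and ethanol 9 members differed in siNS cells, 5 higher and 4 lower in dex (24.3%, against 16.3% of all genes). The replicate numbers pair these arrays. With them as a block 9 members were called, or 24.3% against 21.1% of all genes. If the ethanol arrays were taken at 0 h, these differences also hold 6 h of time. SRSF10 rose most, from 7.64 to 8.04 in ethanol to 8.35 to 8.50 in dex with no overlap (0.56 ± 0.10, 6 against 6 arrays, adjusted p = 6.98e-05). Its dimmer probe gave 0.30 (adjusted p = 0.106). CIRBP rose by 0.42 ± 0.11 (adjusted p = 0.00462) and HNRNPF by 0.41 ± 0.11 (adjusted p = 0.00864). SRSF5 and HNRNPDL rose by 0.25 and 0.36 (adjusted p = 0.0405 and 0.0255), but 9 of 12 and 5 of 12 arrays, left out alone, ended these calls, and the second HNRNPDL probe gave −0.20.

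The members lower in dex than in ethanol in siNS cells were HNRNPLL (−0.49 ± 0.15, adjusted p = 0.0186), HNRNPAB (−0.35 ± 0.10, adjusted p = 0.0136), SRSF9 (−0.23 ± 0.06, adjusted p = 0.00622) and SRSF11. HNRNPAB is an hnRNP of the A/B type, and the HNRNPLL call ended without replicate 1 of either treatment. SRSF11 ranged from 6.52 to 6.90 in ethanol and from 5.35 to 6.84 in dex (−0.52 ± 0.17, adjusted p = 0.0292), and 6 of 12 arrays, left out alone, ended its call.

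In depleted cells dex called 0 members with siCCAR1 (all genes 7.7%; 3 members at an unadjusted p under 0.05), 4 with siCoCoA (9.97%), 0 with siCCAR2 (9.73%; 7 at an unadjusted p under 0.05) and 2 with siZNF282 (6.02%). The replicate numbers pair ethanol with dex arrays in the first 3, and with them as a block the counts were 2, 6 and 1 (all genes 10.8%, 14.2% and 13%). In siCoCoA cells SRSF5 rose by 0.47 ± 0.11 (adjusted p = 0.00238). The brighter HNRNPDL probe rose by 0.62 ± 0.14 (adjusted p = 0.00211), and the second gave 0.055 (adjusted p = 0.912). SRSF10 was called higher by 0.38 ± 0.12 (adjusted p = 0.0421; dimmer probe 0.18, adjusted p = 0.581) and HNRNPA1 lower (−0.52 ± 0.16, adjusted p = 0.0242; second probe −0.20, adjusted p = 0.724). Of 8 arrays left out alone, 6 ended the SRSF10 call and 4 the HNRNPA1 call. In siZNF282 cells SRSF10 was called higher by 0.88 ± 0.18 (adjusted p = 0.00106), and its dimmer probe gave 0.48 (adjusted p = 0.223). HNRNPF was called higher by 0.64 ± 0.20 (adjusted p = 0.0434), a call ended by 2 of the 4 arrays. With only the siZNF282 groups in the fit neither call held (adjusted p = 0.159 and 0.359).

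Whether a depletion altered a member's response to dex was tested as the difference between both responses. No member was called for siCCAR1 (all genes 0.104%), siCoCoA (0.00945%), siCCAR2 (0.085%) or siZNF282 (0.208%), with 2, 1, 3 and 2 members at an unadjusted p under 0.05. The SRSF10 response was 0.15 in siCCAR1 cells and 0.56 in siNS cells, a difference of −0.41 ± 0.16 that did not pass. The largest of these differences for siZNF282 was that of HNRNPA0 (0.49 ± 0.17, adjusted p = 0.292). The members called in siNS cells and not in a depletion are therefore not shown to respond differently there.

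**Figure D4:**
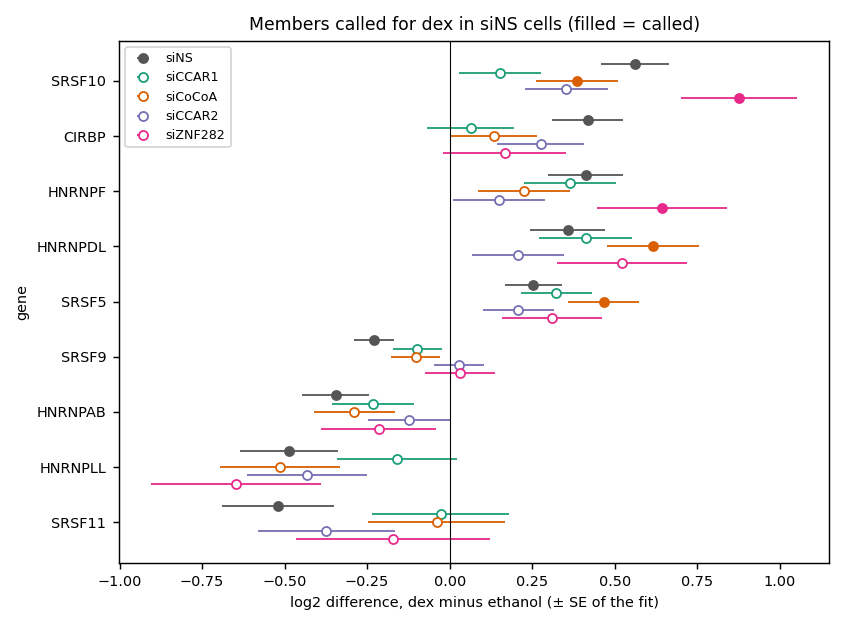
Log2 difference between dex and ethanol (± SE of the fit) for the 9 members called in siNS cells, by siRNA; filled points have an adjusted p under 0.05. SRSF10 is called in siNS (0.56), siCoCoA (0.38) and siZNF282 cells (0.88), while the siCCAR1 value of SRSF10 lies at 0.15; no difference in response between a depletion and siNS passed the test.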

How the data were processed

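Per the labels, Cy3-labelled total RNA was measured on 40 Illumina arrays. The deposited values are log2 intensities of 34469 probes, already normalized between arrays; the submitters' processing notes name limma 3.14.4, and the background correction and normalization are not given in the sources used here. The log base was read from their range, 4.13 to 14.3, and array medians lay between 4.67 and 4.69. A table of non-normalized signals has 80 sample columns that no label ties to a sample, and these were not used.

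Probes were named by the platform annotation with symbols updated through RefSeq: 26360 had 1 symbol, 3 several and 8106 none listed. The brightest probe stood for a gene, and genes with a group mean above 5 were kept. One linear model (lmFit, then eBayes; limma 3.58.1, R 4.3.3) covered all 40 arrays with 10 group means (30 residual and 5.86 prior degrees of freedom). The 23 comparisons were 2-sided, Benjamini-Hochberg adjusted over 10584 genes and called at an adjusted p under 0.05; the fit was tested on simulated data. Values are log2 differences ± SE. Members, context lists and tests were chosen with earlier results of these data known. Values of single arrays are given for CIRBP, RBM3, members called in both treatments of a depletion with at least a 1.5-fold change in one, and those with the largest rise or fall of a comparison; for uncalled largest changes, and a few others named for context, values are limited to differences or left out. SRSF2, whose single arrays are also shown, lies outside this rule and was chosen after its values were seen. The number of arrays limits the precision.

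Same-numbered arrays deviated together (every pair's correlation over 0.1) between ethanol and dex for siNS (6 pairs, 0.129 to 0.27), siCCAR1, siCoCoA and siCCAR2 (4 pairs each, 0.127 to 0.47), and between siNS and siCoCoA or siCCAR2 in dex; the pairing is read from the data and no label states it. No 2 arrays of a group were identical (highest correlation 0.993). Alternatives changed the filter, probe choice, scaling, weights, fit, fold limit and arrays included.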

Additional observations from a re-analysis of the deposited data

Results flagged for a closer look

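In 128 groups of 4 to 6 arrays over 16 members, 6 arrays stood apart from the rest of their group by Dixon's criterion, which chance alone gives in about 1 group in 20. CIRBP read 9.70 on siNS ethanol replicate 4 (others 10.25 to 10.55) and 10.20 on siCCAR1 ethanol replicate 4 (others 10.40 to 10.41). HNRNPDL read 8.15 on siNS dex replicate 6 (others 8.51 to 8.64), and SRSF10 read 8.35 on siNS dex replicate 5 (others 8.45 to 8.50). HNRNPH1 read 10.41 on siCCAR1 ethanol replicate 1 (others 10.19 to 10.21), and SRSF11 read 6.20 on siCCAR2 dex replicate 1 (others 6.30 to 6.32). The CIRBP calls in siCCAR2 cells and for dex in siNS cells remained without any single array.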

How the results depend on the processing

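CIRBP in siCCAR2, SRSF7 in siCoCoA and siCCAR2, HNRNPD in siCCAR1 and HNRNPA1P10 in siZNF282 cells were called in both treatments without any single array and under the 10 other settings run on them. Of 73 depletion calls 36 were kept without any single array, as were 8 of 15 dex calls and 24 of 45 calls of siCCAR2 against another depletion. A limit of at least 1.5-fold lowered the counts most. The depletions (siCCAR1, siCoCoA, siCCAR2 and siZNF282, each in ethanol, then dex) gave 4, 4, 2, 5, 3, 2, 4 and 4 members. Of 10584 genes, 579, 804, 619, 897, 734, 820, 2096 and 2100 passed there. Dex gave 0 and 1 members in siNS and siCoCoA cells (751 and 641 genes). Against siCCAR1, siCoCoA and siZNF282 (ethanol only for the last), siCCAR2 gave 5, 4, 1, 4 and 4 members (1389, 1480, 1103, 1186 and 1938 genes). Fitting only the groups compared gave 7 members for siCCAR1 in dex (1530 of 10584 genes) and 5 and 6 for siZNF282 (2957 and 2477 genes). It gave 0 for dex in siZNF282 cells (75 genes). For siCCAR2 it gave 1 against siCoCoA in ethanol (1243 genes), and 4 and 5 against siZNF282 (852 and 1767 genes). Array weights gave 5 for siZNF282 in ethanol (2067 genes) and 3 for dex in siCCAR1 (1444 genes). They gave 1 for dex in siZNF282 (361 genes) and 4 for siCCAR2 against siZNF282 in ethanol (1557 genes). For dex in siCCAR1 cells a filter line of 6 (824 of 8418 genes) and quantile normalization (818 of 10587) each gave 1 member. Median centring (817 of 10584) and an intensity trend (839) also gave 1 there. For dex in siZNF282 cells no filter (596 of 18348 genes), median centring (639 of 10584) and the trend (643) each gave 1. For dex in siCCAR2 cells the mean of probes gave 1 (1071 of 10584 genes). With the replicate block the counts were 10 for siCCAR2 in dex (2365 genes) and 2 and 1 for dex in siCCAR1 and siCCAR2 (1147 and 1377 genes). The block gave 8 for siCCAR2 against siCoCoA in ethanol (2850 genes). Where numbers only are shared, this was a comparison without known pairing.

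Leaving out single arrays gave 6 to 8 and 6 to 10 for siCCAR1 (7 without dex replicate 2, 6 without replicate 4), 4 to 9 and 11 to 13 for siCoCoA (4 without ethanol replicate 4, 5 without siNS ethanol replicate 1), and 3 to 5 and 3 to 7 for siCCAR2 (3 without ethanol replicate 3, replicate 4 or siNS ethanol replicate 4, and without dex replicate 4). It gave 5 to 11 and 4 to 10 for siZNF282 (5 without ethanol replicate 2, 7 without siNS ethanol replicate 1, 4 and 6 without dex replicates 2 and 3). For dex it gave 6 to 8 in siNS, 0 to 1 in siCCAR1 (1 without ethanol replicates 1 or 3 or dex replicates 1 or 4), 2 to 4 in siCoCoA (2 without ethanol replicate 4 or dex replicates 3 or 4), 0 to 1 in siCCAR2 (1 without dex replicate 4) and 1 to 4 in siZNF282 (4 without ethanol replicate 3, 1 without ethanol or dex replicate 2), and 0 for every change of response. For siCCAR2 it gave 7 to 10 and 5 to 8 against siCCAR1, 2 to 3 and 7 to 9 against siCoCoA (2 without siCoCoA ethanol replicates 1, 2 or 4), and 4 to 8 and 5 to 7 against siZNF282 (4 without siZNF282 ethanol replicate 2, 5 without siCCAR2 dex replicate 4 or siZNF282 dex replicate 2). A lone siZNF282 array was assumed to vary like the other groups. Genes of all kinds called without single arrays were not counted, so these member counts are not set against a share.

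Other probes turned the sign of HNRNPDL in siCCAR1 cells (0.31 and 0.58) and for dex in siNS cells (−0.20), of SRSF10 (0.016) and HNRNPR (0.084) in siCCAR1 cells in ethanol and of HNRNPUL1 in siCoCoA cells in dex (0.022); the cause was not tested. Renewed background correction from non-normalized signals and a detection filter were not run.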
